A study of Mus musculus with 8 samples.

Results

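*Cirbp* and *Rbm3* encode the cold-inducible RNA-binding proteins, and their transcripts were followed in fetal mouse brains after prenatal stress. Both genes were selected on their measured difference between stress and control brains, so that difference is given below as a description, without a test, and tests were kept for sex, which played no role in the choice. They are 2 of the 54752 genes in the count files and 2 of the 17865 genes with enough reads to be tested. RNA from the brains of 8 wild type fetuses of the C57BL/6 strain (C57BL/6Slac in the study's methods) at E15.5 was sequenced, 1 library per brain; the labels give the tissue as whole brain, and the study's sample sheet lists a portion of it. The 4 stress brains came from a dam exposed to chronic unpredictable mild stress (CUMS) during pregnancy, and the 4 control brains from a dam left in its home cage. Each group held 2 females and 2 males. The study's sample sheet lists 1 litter for the control brains and 1 other litter for the stress brains, and the effects of litter and of condition cannot be told apart; p-values measure the spread between these littermates. The libraries held 25320109 to 29105710 counted read pairs. The tissue is bulk, so a change in the number of cells of a type and a change in RNA per cell cannot be told apart for any gene below.

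CIRBP and RBM3 are small proteins with a single RNA recognition motif followed by a glycine-rich tail. Mild cooling raises both in mammalian cells, where they bind messenger RNAs and change their stability, polyadenylation site use and translation, while the classical heat shock proteins answer to the opposite temperature change. In the developing brain RBM3 is known for its part in neural progenitor proliferation and, in the adult brain, in the repair of synapses after cooling; CIRBP is known for tying body temperature to the circadian transcript *Clock* and for its response to hypoxia and ultraviolet light.

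*Cirbp* (ENSMUSG00000045193.13) spans chromosome 10 from 80165985 to 80172786 on the plus strand of mm10, with 2604 exon bases in 7 blocks, none of them shared with another annotated gene. GENCODE lists 7 transcripts for it, 2 of them protein coding, 4 with a retained intron and 1 subject to nonsense-mediated decay. *Rbm3* (ENSMUSG00000031167.16) spans chromosome X from 8138975 to 8145880 on the minus strand, with 4698 exon bases in 6 blocks and 11 transcripts, 6 of them protein coding. Of its exon bases, 2.001% also belong to *Rbm3os*, a transcript of the opposite strand, and no strand setting was given for the counting, so reads in that overlap cannot be assigned to either. A processed copy, *Rbm3-ps*, held 3 to 13 read pairs per library. The counts are sums over all transcripts of a gene, and retained-intron and coding forms were not separated.

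The bases just upstream of a protein-coding transcript of *Cirbp* are shown because this stretch holds a match to the mild cold element described for cold-induced transcription of the gene. They lie at chr10:80167589-80167777 (GRCm38.p6, the assembly also called mm10, plus strand, from the RefSeq promoter table), end 1 base before the first exon base of that transcript at 80167778, and fall within the first intron of a GENCODE transcript that starts further upstream. Capitals mark the mild cold element TCCCCGCC, the GC box GGGCGG and the CCAAT box, each read on either strand.
Cirbp upstream stretch: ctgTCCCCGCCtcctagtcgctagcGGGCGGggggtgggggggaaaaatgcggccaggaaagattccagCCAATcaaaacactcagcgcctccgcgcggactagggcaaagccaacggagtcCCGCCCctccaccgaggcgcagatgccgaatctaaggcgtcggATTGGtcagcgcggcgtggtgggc

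The mild cold element began 186 bases before this first exon base, which GENCODE gives. The GC boxes began 164 and 67 bases before it, and the CCAAT boxes 120 and 24. The promoter table sets 250 bases of its window before its own start, so that start lies further downstream and the distances to it are longer. Of the 32851 promoter windows in the table, 5.38% held the mild cold element on either strand, 35.7% the GC box and 37.4% CCAAT. The E-box CACGTG, found in 7.15% of all windows, and the heat shock element core TTCNNGAA, found in 8.52%, had 0 matches in the 2 windows listed for *Cirbp*. The window shown here in part held 3 GC boxes, the last of them running past the end of the printed stretch. The other window, at chr10:80167921-80168220, held 4 GC boxes, 0 mild cold elements and 0 CCAAT boxes. These are letter matches only, and no binding was measured.

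*Cirbp* was about 1.30-fold higher in the stress brains and *Rbm3* about 1.27-fold higher, and for each gene every stress brain lay above every control brain. In CPM, the read pairs of a gene scaled to library size with TMM factors, *Cirbp* measured 115 in F36, 123 in F37, 116 in M30 and 114 in M31 among the controls. In the stress brains it measured 152 in F34, 156 in F35, 144 in M28 and 156 in M29. The highest control (F37) and the lowest stress brain (M28) were 21.7 CPM apart, whereas the controls ranged over 9.12 CPM and the stress brains over 11.1 CPM. The group means were 117 ± 4.01 and 152 ± 5.21 CPM (SD, n = 4 each), a Log2FC (stress vs. control) of 0.38 (SE 0.03). Between 3172 and 4502 read pairs per library stand behind these values.

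*Rbm3* measured 248, 237, 225 and 237 CPM in control F36, F37, M30 and M31. It measured 300, 283, 295 and 326 CPM in stress F34, F35, M28 and M29. The lowest stress brain was F35 and the highest control was F36, 35.01 CPM apart, and M29 stood highest of the 8. The stress brains spread over 43.0 CPM and the controls over 23.3 CPM. The means were 237 ± 9.52 and 301 ± 18.1 CPM (SD, n = 4 each), a Log2FC of 0.35 (SE 0.04), from 6190 to 9433 read pairs per library. Without M29 the Log2FC was 0.30, its lowest value when each brain was left out in turn, and without stress F35 it was 0.38, its highest.

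**Figure D1:**
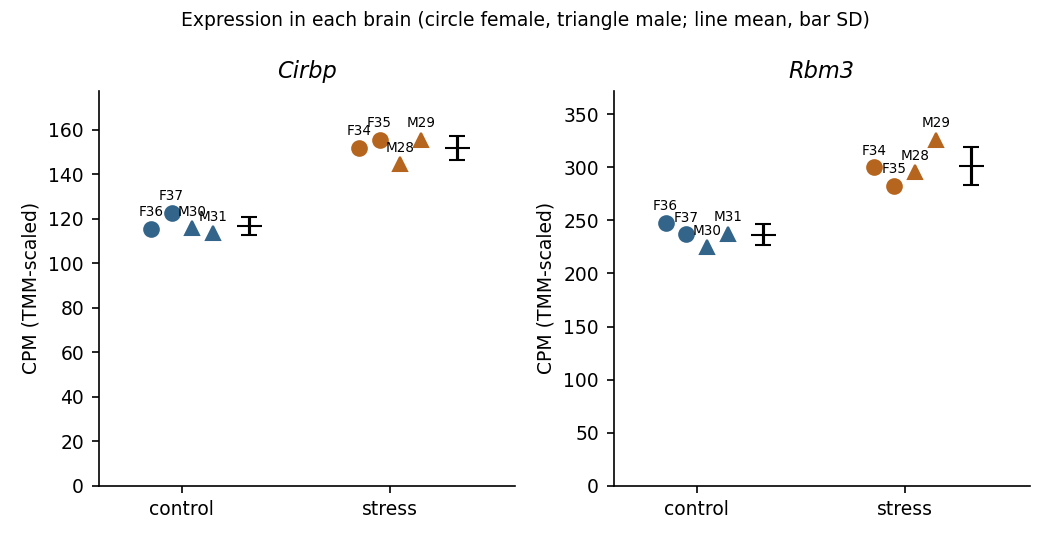
CPM (TMM-scaled, axes from 0) of *Cirbp* and *Rbm3* in each of the 4 control and 4 stress brains, with circles for females, triangles for males, and the mean with its SD beside each group. All stress brains sit above all controls for both genes, with the lowest stress value at 144 CPM for *Cirbp* and 283 CPM for *Rbm3*.

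For scale, 1160 of the 17865 tested genes (6.49%) were higher in stress and 1298 (7.27%) lower by edgeR's quasi-likelihood test at a Benjamini-Hochberg adjusted p under 0.05. Every stress brain lay above every control brain for 8.20% of tested genes and below for 8.22%. Since both genes were chosen for this contrast, nothing is read from their place among these. The median Log2FC of all tested genes was 0.00148.

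The transcripts were abundant, and their levels were similar once divided by exon length, 2604 bases for *Cirbp* and 4698 for *Rbm3*. By CPM, without that division, *Cirbp* stood at 119 and *Rbm3* at 242 in control females, and at 150 and 311 in stress males. The TPM values, their ratio and the ranks depend on these lengths. Per length, *Cirbp* stood at 174 ± 5.25 TPM (counts divided by exon length and scaled to a common total) in controls and 225 ± 7.99 in stress brains, and *Rbm3* at 195 ± 7.54 and 247 ± 12.3 (SD, n = 4 each). By mean TPM, *Rbm3* ranked 687 and *Cirbp* 795 among tested genes, above 96.2% and 95.5% of them. The TPM of *Rbm3* divided by that of *Cirbp* was 1.19, 1.07, 1.07 and 1.16 in control F36, F37, M30 and M31, and 1.09, 1.01, 1.13 and 1.16 in stress F34, F35, M28 and M29. The ratio averaged 1.12 ± 0.0602 in controls and 1.10 ± 0.0668 in stress brains, so the groups overlapped. *Rbm3* was the higher of the pair in each of the 8 brains on this scale.

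Neither gene differed detectably between the sexes, although *Rbm3* lies on the X chromosome. Averaged over both conditions, females exceeded males by a Log2FC of 0.04 for *Cirbp* (95% interval -0.02 to 0.11; adjusted p = 0.887, edgeR's quasi-likelihood test), and the difference for *Rbm3* was -0.01 (95% interval -0.09 to 0.06; adjusted p = 0.979). In this comparison 16 genes (0.0896%) passed the threshold. Among the 588 X-linked genes tested, 8 were higher in females and 1 lower, and *Rbm3* ranked 315 from the female-high end. Mean *Rbm3* CPM was 242 in control females and 231 in control males, against 292 in stress females and 311 in stress males, so the order of the sexes in these samples was not the same in the 2 groups.

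The stress difference in *Cirbp* was nearly equal in the sexes when each was fitted alone, at a Log2FC of 0.37 in females and 0.39 in males. For *Rbm3* it was 0.27 in females and 0.43 in males, or 1.20-fold and 1.34-fold by mean CPM. The difference between the sexes in the stress effect was -0.16 for *Rbm3* (95% interval -0.29 to -0.03). Its unadjusted p was 0.0171 and its adjusted p was 0.680 in edgeR's quasi-likelihood test over all genes, so it did not pass the threshold. With each brain left out the estimate ranged from -0.23 (without M28) to -0.09 (without M29). For *Cirbp* it was -0.02 (95% interval -0.14 to 0.11, adjusted p = 0.976). Of all genes tested, 1 (0.00560%) passed in this interaction and 1128 had an unadjusted p under 0.05.

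*Rbm3* belongs by name to the RBM genes, a loose group of RNA recognition motif proteins with roles in splicing, messenger RNA export and translation. Of 48 other genes with such symbols, 37 were tested, 7 rose (18.9%), 2 fell (5.41%) and 28 did not pass. The match was by symbol alone, so the opposite-strand transcript *Rbm3os* is among the 37 and the untested *Rbm3-ps* among the 48. Over all tested genes 6.49% rose and 7.27% fell. The median Log2FC of the 37 was 0.0575. The largest rise was that of *Rbm12*, at 45.6 ± 0.723 CPM in controls and 55.7 ± 2.07 in stress (Log2FC 0.29, SE 0.04, adjusted p = 1.04e-05, edgeR's quasi-likelihood test), although 33.1% of its exon bases are shared with *Cpne1* and *Gm28036* on the same strand. *Rbm20*, a splicing repressor best known from heart muscle, went from 7.09 ± 0.0841 to 8.32 ± 0.423 CPM (Log2FC 0.23) and *Rbm34* from 29.3 ± 1.07 to 32.9 ± 1.18 (Log2FC 0.17). The genes that fell were *Rbm28*, a nucleolar protein (Log2FC -0.12), and *Rbm33* (Log2FC -0.09). *Rbm39*, a splicing coactivator, was as abundant as the cold-inducible pair at 213 TPM and rose by a Log2FC of 0.12. *Rbmx* led the group at 260 TPM and rose by 0.10.

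Several of these calls lay near the threshold and did not hold when a brain was left out. The Log2FC of *Rbm20* stayed at 0.19 to 0.26 in those fits. Without stress M29, 2 RBM genes rose and 0 fell; with DESeq2 4 rose. *Rbm12* and *Rbm39* kept their call in all 8 fits that left out 1 brain, *Rbm28*, *Rbm34* and *Rbmx* in 6, *Rbm33* in 4, *Rbm45* in 2 and *Rbm20* and *Rbm27* in 1. Ordered by TPM among these genes, the highest was *Rbmx*, followed by *Rbm3*, *Rbm39* and *Cirbp*, and the ranges over brains overlapped between each of these and the next. *Rbm42* was among the 11 not tested, with 2 to 4 read pairs per library, 75.4% of its exon bases being shared with *Gm21982*.

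**Figure D2:**
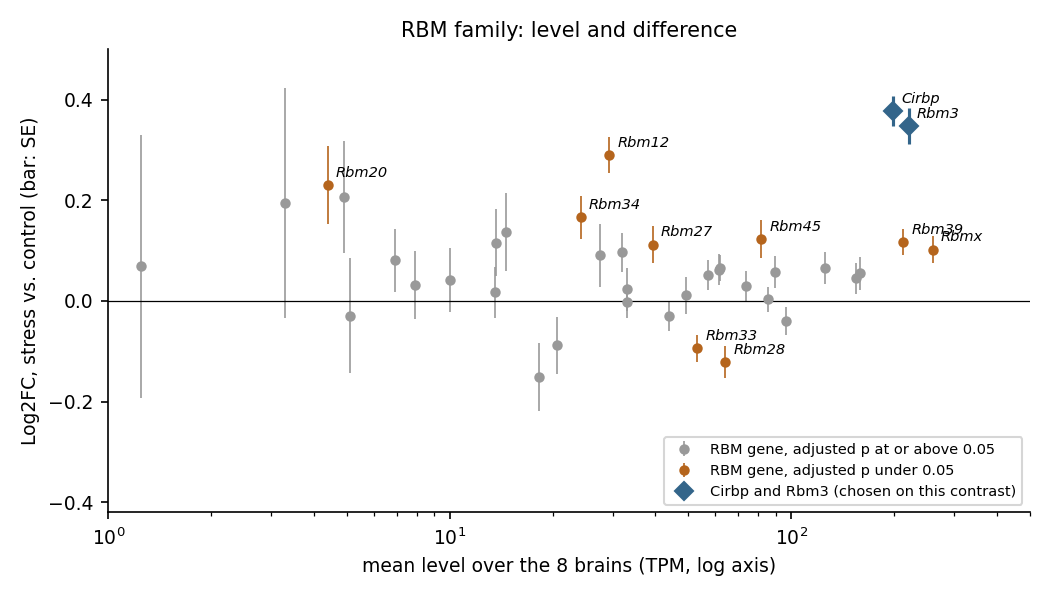
Mean level over the 8 brains (TPM, log axis) against Log2FC (stress vs. control, bar: SE) for the RBM genes tested, with *Cirbp* and *Rbm3* as diamonds and genes at an adjusted p under 0.05 in orange and named. The diamonds, which were chosen on this contrast, lie at Log2FC 0.38 and 0.35. Among the other RBM genes *Rbm12* lies highest, at 0.29.

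Of the 21 heat shock genes tested, most of whose products help proteins fold, 0 rose, 4 fell (19.0%) and 17 did not pass. The shares over all tested genes were 6.49% higher and 7.27% lower. The median Log2FC of the list was -0.0508. *Hsph1*, a nucleotide exchange factor of HSP70, fell from 192 ± 3.07 to 171 ± 5.83 CPM (Log2FC -0.17, adjusted p = 0.000223, edgeR's quasi-likelihood test). *Hspa8*, the constitutive HSP70, fell from 1858 ± 14.0 to 1729 ± 40.2 CPM (Log2FC -0.10, adjusted p = 0.00559). The inducible genes *Hspa1a* and *Hspb1* were rare. *Hspa1a* measured 2.55, 1.83, 2.18 and 2.11 CPM in control F36, F37, M30 and M31 and 1.23, 1.50, 0.976 and 1.17 in stress F34, F35, M28 and M29 (Log2FC -0.83, adjusted p = 0.00119), from 28 to 70 read pairs. It shares 19.0% of its exon bases with *Gm20481* on the opposite strand. Its near-identical copy *Hspa1b* had a Log2FC of -0.43 (adjusted p = 0.0705, edgeR's quasi-likelihood test). Read pairs that match both copies cannot be assigned to 1 of them, and no counting option for such pairs was stated. *Hspb1*, a small heat shock protein, went from 1.58 ± 0.255 to 0.901 ± 0.146 CPM (Log2FC -0.81, adjusted p = 0.00430). In these 4 genes every stress brain lay below every control brain, as was so for 8.22% of all tested genes. All 4 calls held in the 8 fits that left out 1 brain. Without control M31, 7 of the list fell.

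The cold shock domain genes are named for a different nucleic acid-binding fold, shared with bacterial cold shock proteins. Of the 7 reported here, 0 rose, 2 fell (28.6%) and 5 did not pass, and their median Log2FC was 0.00717. Among all tested genes 6.49% rose and 7.27% fell. *Csdc2* fell from 150 ± 6.40 to 134 ± 3.63 CPM (Log2FC -0.17, adjusted p = 0.000317, edgeR's quasi-likelihood test). *Ybx3* fell from 103 ± 1.05 to 96.4 ± 1.25 CPM (Log2FC -0.10, adjusted p = 0.0252) and was called in 5 of the 8 fits without 1 brain. *Lin28a*, an inhibitor of let-7 processing, was at 0.653 ± 0.134 and 0.824 ± 0.131 CPM, with overlapping groups (adjusted p = 0.382). *Ybx2*, a Y-box protein best known from germ cells, was at 17.4 ± 0.912 and 16.8 ± 1.23 CPM (adjusted p = 0.661). Without control F37, control M30 or stress M29, 1 of the list fell.

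The genes listed as regulators include splicing factors, channels and kinases reported to act on *Cirbp* or *Rbm3* or on their proteins. Of 18 tested, 1 rose (5.56%), 2 fell (11.1%) and 15 did not pass, with a median Log2FC of 0.0275. These shares lie near those over all tested genes, 6.49% higher and 7.27% lower. *Hif1a*, the oxygen-regulated transcription factor subunit, rose from 155 ± 4.01 to 170 ± 4.56 CPM (Log2FC 0.13, adjusted p = 0.00225, edgeR's quasi-likelihood test). *Ntrk2*, which encodes the BDNF receptor TrkB, measured 221, 233, 223 and 235 CPM in control F36, F37, M30 and M31. It measured 208, 205, 199 and 195 CPM in stress F34, F35, M28 and M29 (Log2FC -0.18, adjusted p = 0.000168, edgeR's quasi-likelihood test). All stress brains lay below all controls, an order that 8.22% of all tested genes share. *Clk1*, a temperature-sensitive kinase of splicing factors, fell from 181 ± 2.65 to 166 ± 7.50 CPM (Log2FC -0.13, adjusted p = 0.00644). *Hnrnph1*, a splicing factor that acts on *Rbm3*, was at 904 ± 13.6 and 940 ± 29.3 CPM (Log2FC 0.06, adjusted p = 0.171), and *Sp1*, a factor that binds GC boxes, had a Log2FC of 0.08 (adjusted p = 0.133). Without control M31, 2 of the list rose.

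Among 7 transcripts reported as bound or controlled by the pair, 2 rose (28.6%), 0 fell and 5 did not pass, with a median Log2FC of 0.00575. For all tested genes the shares were 6.49% and 7.27%. *Yap1*, the Hippo pathway coactivator, went from 31.3 ± 1.50 to 34.6 ± 1.86 CPM (Log2FC 0.14, adjusted p = 0.0373, edgeR's quasi-likelihood test). *Rpa2*, a subunit of the single-strand DNA-binding complex, went from 21.8 ± 1.53 to 24.4 ± 1.29 CPM (Log2FC 0.16, adjusted p = 0.0408). In both the groups overlapped, each was called in 3 of the 8 fits without 1 brain, and with DESeq2 their adjusted p-values were 0.0992 and 0.115. *Clock*, whose polyadenylation CIRBP is known to influence, was at 59.5 ± 2.97 and 59.8 ± 2.65 CPM (Log2FC 0.01, adjusted p = 0.949). *Txn1* (thioredoxin) had a Log2FC of -0.03, *Rtn3*, an RBM3 target in synapse repair, one of -0.01, and *Atr*, the replication stress kinase, one of 0.10 (adjusted p = 0.149). RNA abundance does not show binding or translation, which were not measured.

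**Figure D3:**
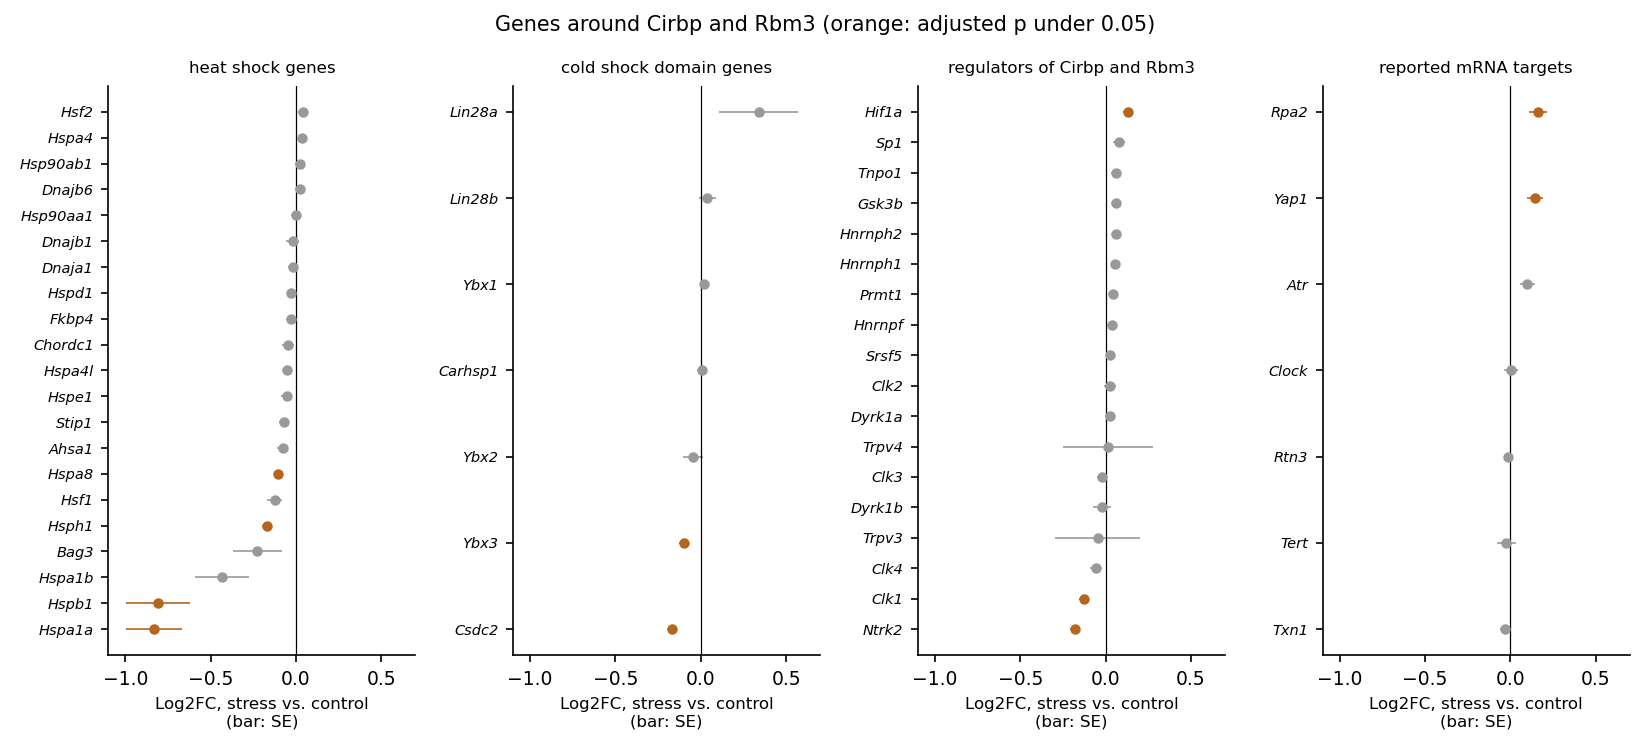
Log2FC (stress vs. control, bar: SE) of each tested gene in the heat shock, cold shock domain, regulator and target lists, with genes at an adjusted p under 0.05 in orange. The 4 orange heat shock genes lie left of 0, down to -0.83 for *Hspa1a*, whereas *Hif1a* lies at 0.13 and *Ntrk2* at -0.18.

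Within 50 kb of *Cirbp* 6 genes were tested, and 1 rose, against 6.49% of all tested genes. *Midn*, which encodes the nuclear protein midnolin, rose from 308 ± 10.7 to 338 ± 9.52 CPM (Log2FC 0.13, adjusted p = 0.00303, edgeR's quasi-likelihood test). Its groups did not overlap, and 8.20% of all tested genes had every stress brain above every control brain. *Stk11*, *Cbarp*, *Atp5d*, *Efna2* and *1600002K03Rik*, the last only 158 bases away, had Log2FC values of 0.01, -0.05, -0.03, -0.08 and -0.10, and none passed. Around *Rbm3*, *Wdr13*, *Tbc1d25*, *Ebp*, *Porcn* and the overlapping *Rbm3os* were tested, and 0 passed, with Log2FC values from -0.08 to 0.19. The value of 0.19 was that of *Rbm3os* (SE 0.23), which held 183 read pairs over the 8 libraries. *Was*, *Gm6787* and *Psmb7-ps2* had too few reads to be tested.

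**Figure D4:**
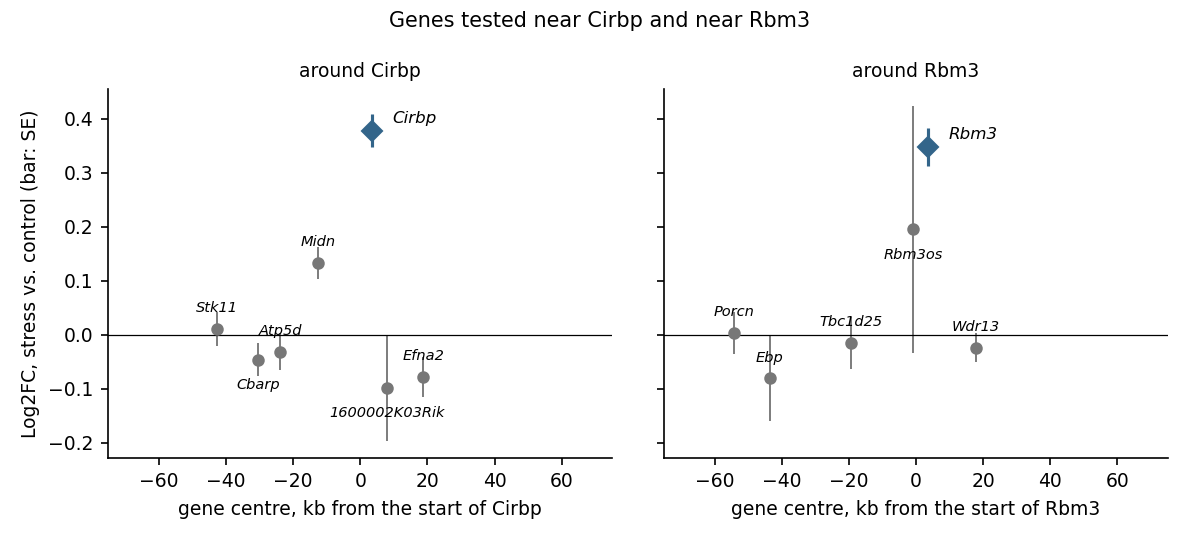
Log2FC (stress vs. control, bar: SE) of the genes tested within 50 kb of *Cirbp* (left) and *Rbm3* (right), against the distance in kb of each gene's centre from the member's start. The members, as diamonds, lie at 0.38 and 0.35, *Midn* at 0.13 and *Rbm3os* at 0.19 with an SE of 0.23.

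Likeness of profile was measured as the root mean square (RMS) difference of centred log2 CPM over the 8 brains, which the group difference dominates. The closest to *Cirbp* were *Cep83os* (RMS 0.0221), *2700099C18Rik* (0.0450), *Txnip*, a thioredoxin inhibitor (0.0456), *Tcta* (0.0550) and *Tipin*, a replication fork protein (0.0555). Of these *Txnip* and *2700099C18Rik* share 19.4% and 11.6% of their exon bases with opposite-strand transcripts, and *Cep83os* shares 5.24%. The closest to *Rbm3* were *Rbm12* (0.0518), *H3f3b*, a histone H3.3 gene (0.0519), *C920006O11Rik* (0.0529), *E130114P18Rik* (0.0544) and *Rrm2*, a ribonucleotide reductase subunit (0.0567). *Rbm3* ranked 28 in likeness to *Cirbp*, and *Cirbp* 44 in likeness to *Rbm3*, at an RMS of 0.0739. Within the groups the pair did not keep 1 order, since F37 was the highest control for *Cirbp* and F36 for *Rbm3*, and F35 was among the highest stress brains for *Cirbp* but the lowest for *Rbm3*.

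Markers of some cell types differed in the same contrast, in which 6.49% of all tested genes rose and 7.27% fell. Summed over each list, stress and control brains were apart only for the dividing-cell and endothelial markers and overlapped for the rest. All 8 dividing-cell markers rose, or 7 without control F36. Their summed level was 528 to 572 CPM in controls and 602 to 689 in stress brains. Of 6 endothelial markers 4 fell and 0 rose, with sums of 146 to 163 and 130 to 139 CPM. Without control F37, control M31 or stress M28 2 of them fell, and 3 fell in each other fit that left out 1 brain. Of 8 radial glia markers 4 rose and 0 fell (1529 to 1623 and 1559 to 1686 CPM). Without control F37 or stress F34, M28 or M29 3 of them rose, and without control M31 1 fell. Of 8 neuronal markers 0 rose and 5 fell (6433 to 6668 and 6325 to 6568 CPM). With a brain left out, 5 fell only without stress F35, 3 without control F36 or stress F34 or M28, and 4 in the rest. Of 8 red blood cell markers 2 rose and 1 fell (364 to 412 and 370 to 384 CPM), with the fall lost without control F37 or stress F34, and of 6 microglial markers 0 passed (30.8 to 34.4 and 29.4 to 33.9 CPM). Of 5 choroid plexus markers 2 rose; their sum was 2.43 to 10.5 CPM in controls, 33.5 in stress F34 and 2.59 to 9.68 in the other stress brains. Without F34 or control F37 0 of them rose, and without control F36, M30 or M31 or stress F35 or M28 1 did. Of the 4 meningeal markers tested 3 rose; their sum was 12.3 to 25.4 CPM in controls, 58.9 in stress M28 and 16.8 to 28.4 in the other stress brains. Without M28 1 of them rose, and without control M30 or M31 2 of the 5 then tested did, against 5 of 5 without control F36. These counts with a brain left out were added after seeing the data. The part of any of these in the values of *Cirbp* and *Rbm3* was not tested.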

How the data were processed

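Messenger RNA of E15.5 brains was sequenced by the authors as paired reads. Per the labels and the study's methods, the authors trimmed the reads, used TopHat2 2.1.1 for alignment to mm10 and featureCounts 1.6.3 for counting read pairs over GENCODE exons. The deposited values are raw counts per gene, and no strand setting was stated. Of 54752 identifiers, 54723 matched a symbol. Genes were kept by filterByExpr (minimum count 10), scaled by TMM and passed to the quasi-likelihood functions glmQLFit and glmQLFTest of edgeR 4.0.16 (R 4.3.3, limma 3.58.1). The model held condition and sex, with Benjamini-Hochberg adjustment over all 17865 genes at a threshold of 0.05. An interaction of sex and condition was fitted separately. SEs came from the Log2FC and F value, and 95% intervals from the t distribution with the degrees of freedom of the fit. TPM used the union of exon bases, and log2 CPM a prior count of 2. The study's model also held batch, which is not labelled for these libraries. Alternatives were DESeq2 1.42.0, RLE and upper-quartile scaling, no filter, no sex term, each sex or condition alone, and each brain left out. Named genes were both members, up to 4 genes with the smallest p in each list plus *Hnrnph1*, *Clock*, *Rpa2*, *Txn1*, *Rtn3* and *Yap1*, the 3 largest rises and falls among called RBM genes, the 5 most alike profiles of each member and the tested genes within 50 kb; *Rbm39*, *Rbmx*, *Rbm42*, *Rbm45*, *Rbm27*, *Rbm3-ps* and *Hspa1b* were named after their values were seen. Of the cold shock domain list, 1 gene is not reported here. Members and lists were chosen with earlier results of these data known.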

Additional observations from a re-analysis of the deposited data

Results flagged for a closer look

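Within groups of 4, a brain stood apart from the other 3 (Dixon's test at 95%) in 4 of 92 groups over the 46 named genes. For independent groups of unselected genes chance gives about 1 in 20. These groups share the same brains, and *Cep83os* and *Tipin* were named for their profiles over them, so that rate is only a rough guide. *Cep83os* was at 7.18 CPM in stress M28 and at 7.47 to 7.50 in the other stress brains. *Rbm34* was at 34.6 CPM in stress M29 and at 32.2 to 32.5 in the others. *Tipin* was at 29.4 CPM in stress M29 and at 28.4 to 28.5 in the others. *Ybx2* was at 14.99 CPM in stress M29 and at 17.4 to 17.5 in the others. Neither *Cirbp* nor *Rbm3* was among them.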

How the results depend on the processing

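The Log2FC (stress vs. control) kept its direction under every alternative run, at 0.35 to 0.40 for *Cirbp* and 0.30 to 0.38 for *Rbm3* when each brain was left out. Both genes were chosen on this contrast, and every stress brain lay above every control brain. Leaving out a brain or fitting each sex alone could therefore not reverse the direction. With DESeq2 748 genes were higher and 911 lower. Leaving out each brain gave 736 to 1057 higher and 854 to 1308 lower, the lowest (736 and 854) without stress M29. The female vs. male Log2FC of *Rbm3* reversed to 0.0678 in control brains alone and ranged from -0.0443 to 0.0330 over brains left out, being above 0 without stress F35 or M29. The interaction in *Cirbp* ranged from -0.0691 to 0.0353 over brains left out, above 0 without control F37 or stress M29; the cause was not tested. Of the targets, 0 rose with DESeq2 or without the sex term. No paired analysis was possible because the labels give the brains of the 2 groups no shared numbers. With 1 litter per condition, the counts cannot separate litter from stress.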
